A study of Equus caballus with 12 samples.

Results

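RCAN3 (ENSECAG00000020134) and NFATC2IP (ENSECAG00000010483) are 2 of the 11425 genes in the deposited table of mature horse oocytes. They were picked by their identifiers with their values in these oocytes already known, so their levels below are a description and carry no test. Which sample was fresh or vitrified rests on the column codes that the labels give to each sample. The study asked how vitrification before or after in vitro maturation affects the mRNA of the mature oocyte. FR oocytes (5 samples) were matured fresh and never vitrified, VMAT oocytes (3 samples) were vitrified and warmed after maturation, and VIM oocytes (4 samples, labelled VGV by the submitters) were vitrified immature at the germinal vesicle stage, warmed and then matured. All oocytes came from slaughterhouse ovaries, were matured with follicle-stimulating and luteinizing hormone, freed of cumulus cells and kept only if a polar body was seen. Each sample was a pool of 23 oocytes on average, and the horses were not named in the labels, so the spread between samples of a group is that between pools. In a pool, fewer oocytes holding a transcript and less of it per oocyte cannot be told apart.

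Calcineurin is a phosphatase that becomes active when calcium and calmodulin bind to it. It dephosphorylates the NFAT transcription factors, which then enter the nucleus, and kinases such as GSK3B and DYRK1A reverse this. RCAN3 belongs to a small family of proteins that bind calcineurin and modulate its activity. NFATC2IP, also known as NIP45, was found as a binding partner of NFATC2 and carries SUMO-like domains. In the egg, calcium released through the inositol trisphosphate receptor ITPR1 at fertilization ends the arrest at metaphase II.

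The samples had 1636620 to 12166950 reads on genes, and both extremes were VMAT samples (replicates 1 and 2). The values are normalized counts, that is, reads divided by a size factor of the sample, and they were turned back into whole reads. A single read was worth 0.125 (VMAT replicate 2) to 3.11 (VMAT replicate 1) on this scale. The 11 of 16 oocyte markers that could be found by name, ZP2, GDF9 and BMP15 among them, summed to 13827 to 29173 in every sample, and none of them was at 0 throughout. DPPA3 and BTG4 made up most of this sum, whereas ZAR1 was at 3.11 to 33.4 in VMAT against 115 to 252 in FR, and TLE6 at 3.11 to 18.4 in VMAT against 2.29 to 90.3 in FR. Of 14 cumulus cell markers only HAS2 could be found by name, at 641 to 2144 in VIM, 254 to 1755 in VMAT and 462 to 1239 in FR. Its part in the results was not tested.

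By the labels, RCAN3 was close to absent from all fresh samples and abundant in most vitrified ones. The direction of this difference depends on those labels being right, which could not be checked from the values. Its normalized count was 339, 3.26, 699 and 311 in VIM replicates 1 to 4. In VMAT replicates 1 to 3 it was 6.22, 251 and 542. In FR replicates 1 to 5 it was 5.39, 19.4, 3.36, 1.51 and 2.86. Thus 3 of 4 VIM samples and 2 of 3 VMAT samples lay above every FR sample, so that neither group was clear of FR (0.952% of all genes tested had every VIM sample above every FR sample, 0.639% every VIM sample below, and 1.96% every VMAT sample above). Nothing is read from these shares, since the gene was chosen with the contrasts known. In contrast, the remaining vitrified samples (VIM replicate 2 and VMAT replicate 1) lay within the range of FR. These exceptions held 2 reads each, and the exact Poisson 95% intervals of 0.395 to 11.8 and 0.754 to 22.5 covered all FR values but one in the first case and all in the second. The FR samples held 3 to 17 reads, whereas the high vitrified samples held 318 to 2001. Intervals of this kind cover counting error only.

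The mean of RCAN3 was 6.51 ± 7.36 (SD, n = 5) in FR. In VIM it was 338 ± 285 (SD, n = 4), and VMAT had a mean of 266 ± 268 (SD, n = 3). The medians stood in the same order, with 325 for VIM, 251 for VMAT and 3.36 for FR. VIM and VMAT did not differ beyond their spread, and VMAT and FR overlapped through VMAT replicate 1. The log2 fold changes on the log2(normalized count + 1) scale, which understates changes of low genes, were 4.57 ± 2.18 (limma standard error) for VIM vs. FR and 4.15 ± 2.49 for VMAT vs. FR. That for VIM vs. VMAT was 0.42 ± 1.997. The first and second of these share the FR samples. Without VIM replicate 2 the fold change in VIM vs. FR was 6.23, and without VMAT replicate 1 that in VMAT vs. FR was 6.04. In VIM vs. VMAT the sign turned when VMAT replicate 1 was left out, with a log2 fold change of -1.47, and also without VIM replicate 1 (-0.03) or VIM replicate 3 (-0.38). This comparison therefore gave no direction.

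**Figure D1:**
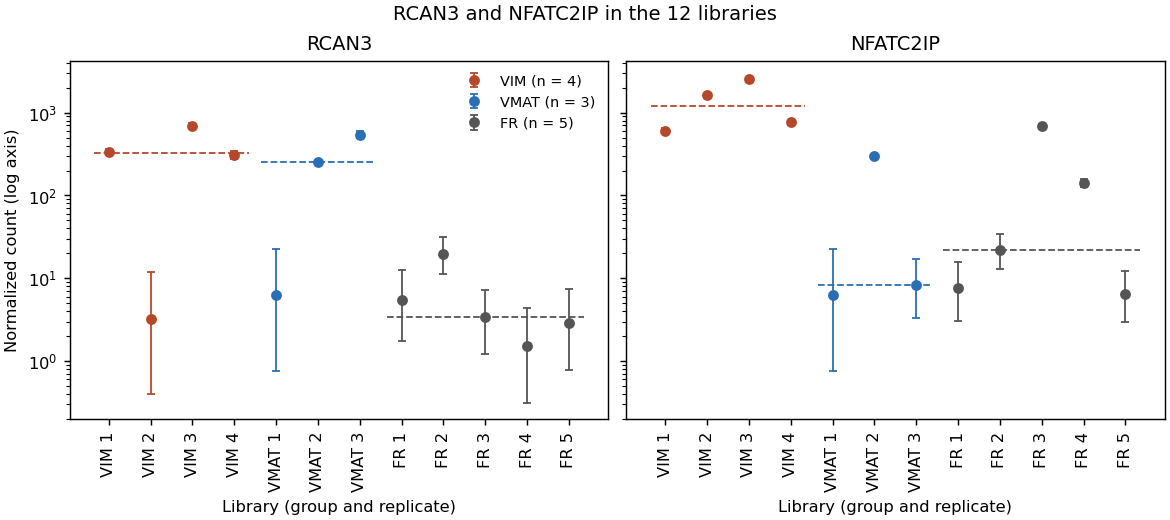
Normalized counts (log axis) of RCAN3 and NFATC2IP in each of the 12 samples, with exact Poisson 95% intervals as bars and the group median as a dashed line. RCAN3 is below 20 in all FR samples and between 251 and 699 in 5 of the 7 vitrified samples, and NFATC2IP is at 605 or more in all VIM samples and in FR replicate 3.

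RCAN3 had reads in all 12 samples, but its level was of a similar order only in those with more than 30 reads. Over these 5 samples it ranged 2.79-fold in normalized counts, and 2.14-fold as RPM, that is, scaled to the total reads of the sample (107 to 229). The 7 low samples together held 39 reads against 3912 in the 5 high samples, or 0.987% of all RCAN3 reads. No sample lay between 17 and 318 reads, so the count of high samples would be the same at any limit in that gap.

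NFATC2IP was abundant in every VIM sample, and found at a high level in some samples only of the other groups. Its normalized count was 605, 1615, 2557 and 763 in VIM replicates 1 to 4. In VMAT replicates 1 to 3 it was 6.22, 299 and 8.25. In FR replicates 1 to 5 it was 7.55, 21.7, 681, 141 and 6.44. All VIM samples were above all VMAT samples. Against FR, 3 of 4 VIM samples were above every sample, and VIM replicate 1 lay below FR replicate 3. The high VMAT value came from replicate 2, the sample with the most reads, which held 2384 reads of the gene, whereas the other VMAT samples held 2 and 7.

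NFATC2IP had a mean of 1385 ± 899 (SD, n = 4) in VIM. Its mean was 104 ± 168 (SD, n = 3) for VMAT, while FR had 172 ± 290 (SD, n = 5). The medians were 1189, 8.25 and 21.7, and VMAT and FR did not differ beyond their spread. The log2 fold change was 4.79 ± 1.43 (limma standard error) for VIM vs. FR and 5.44 ± 1.65 for VIM vs. VMAT. That for VMAT vs. FR was -0.65 ± 2.28. Without VMAT replicate 2 the fold change in VIM vs. VMAT was 7.17, and that in VMAT vs. FR was -2.38. The latter turned positive without FR replicate 3 (0.35), VMAT replicate 1 (0.31) or VMAT replicate 3 (0.13). Of the 7627 genes tested in VIM vs. VMAT, 1.72% had all VIM samples above all VMAT samples as NFATC2IP did, and 2.78% had them all below. Since the gene was chosen with this contrast known, nothing is read from that share.

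**Figure D2:**
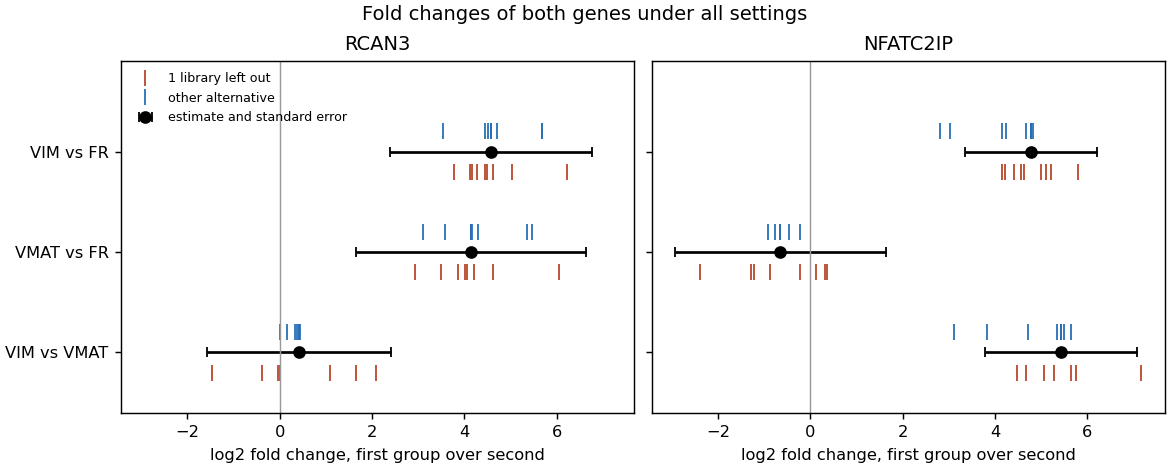
Log2 fold changes of RCAN3 and NFATC2IP in the 3 comparisons (points, with the limma standard error as bars), with the values after leaving out 1 sample (lower ticks) and under the other alternatives (upper ticks). Both genes stay above 2 in VIM vs. FR at every tick, while RCAN3 in VIM vs. VMAT and NFATC2IP in VMAT vs. FR fall on both sides of 0.

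Within groups, NFATC2IP was most even in VIM. The SD of its log2 values was 0.96 in VIM, 3.005 in VMAT and 2.81 in FR, whereas that of RCAN3 was 3.35 in VIM, 3.32 in VMAT and 1.15 in FR.

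RCAN3 and NFATC2IP were both high or both low in 8 of 12 samples. Both had more than 30 reads in 4 samples (VIM replicates 1, 3 and 4 and VMAT replicate 2), and neither did in another 4 (VMAT replicate 1 and FR replicates 1, 2 and 5). RCAN3 alone was high in VMAT replicate 3, and NFATC2IP alone in VIM replicate 2 and FR replicates 3 and 4. Pearson's r between their log2 values over the 12 samples was 0.32, given as a description of samples that share their groups and depth. In VMAT replicate 1, with the fewest reads of all samples, both genes held 2 reads, and in VMAT replicate 2, with the most, both were high. The part of depth in this was not tested. FR replicate 2 held more reads of each gene than the other low samples, with 17 of RCAN3 and 19 of NFATC2IP.

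A split into samples with few reads and samples with many was common among genes of this abundance. Of the 2158 genes with a mean over all samples within 2-fold of that of RCAN3 (182), 40.4% had a step of at least 10-fold between neighbouring samples when these were sorted by level, and for RCAN3 this step was 12.3-fold. Only 1.53% of those genes had more than 30 reads in all 12 samples. The within-group SD of RCAN3 on the log2 scale was 2.61, below the median of 3.13 of those genes. For NFATC2IP, with a mean of 559, the largest step was 6.26-fold, and 33.6% of 1356 genes of like mean had one of at least 10-fold. Its within-group SD of 2.41 was close to their median of 2.34. The SD of RCAN3 exceeded that of 24.4% of genes of its level, and the SD of NFATC2IP that of 52.5%. The value of RCAN3 pools an SD of 1.15 in FR, where all samples were low, with 3.35 in VIM and 3.32 in VMAT. Nothing is read from these ranks, since both genes were chosen with their values known.

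**Figure D3:**
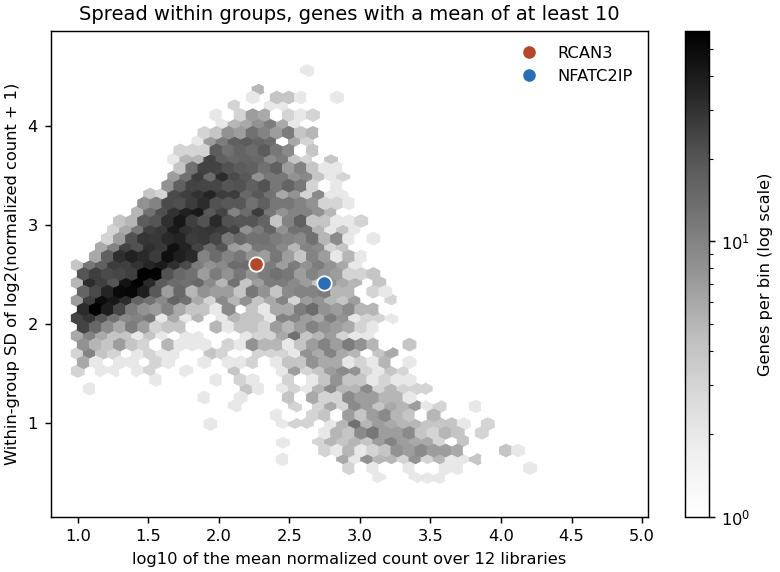
Within-group SD of log2(normalized count + 1) against log10 of the mean normalized count for all genes with a mean of at least 10, with the number of genes per bin in grey (log scale). RCAN3 (SD 2.61) and NFATC2IP (SD 2.41) lie inside the cloud of genes of their level.

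Of 559 other genes with more than 30 reads in 5 samples, 3 had them in the same samples as RCAN3. Many sets of 5 samples are possible, so a low number is no trait particular to RCAN3. Among 9027 genes compared, the most similar by Pearson's r of log2 values over 12 samples were ENSECAG00000020760 (r = 0.95), ENSECAG00000012175 (r = 0.91), G3BP2 (r = 0.90), TBC1D22B (r = 0.90) and ENSECAG00000034189 (r = 0.90). G3BP2 encodes a stress granule protein and TBC1D22B a protein of the Rab GTPase-activating family. G3BP2 was at 3.26 to 748 in VIM, 9.34 to 587 in VMAT and 2.16 to 25.2 in FR, and it was high or low together with RCAN3 in 11 of 12 samples. TBC1D22B ran from 1.63 to 603 in VIM, from 0 to 1059 in VMAT and from 0.716 to 17.7 in FR. Both genes were picked for their likeness to RCAN3 in these samples, so nothing is read from the shared pattern.

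For NFATC2IP, 1 other gene of 382 with 7 high samples had the same high samples. The most similar genes were ENSECAG00000029185 (r = 0.93), MICU2 (r = 0.92), ENSECAG00000039870 (r = 0.89), ENSECAG00000011553 (r = 0.89) and HEY1 (r = 0.85). MICU2 regulates the calcium uniporter of mitochondria, and HEY1 is a transcriptional repressor downstream of Notch. MICU2 was at 628 to 1068 in VIM, 3.54 to 166 in VMAT and 2.16 to 750 in FR. Its VIM samples were above all VMAT samples and overlapped with FR. Since MICU2 was picked for its likeness to NFATC2IP in these samples, nothing is read from this shared pattern. HEY1 was at 9.78 to 1187 in VIM, 0 to 132 in VMAT and 1.43 to 337 in FR. RCAN3 ranked 1705 in likeness to NFATC2IP.

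The genes around RCAN3 and NFATC2IP were taken from 2 lists, of 48 calcineurin and NFAT genes and of 33 genes of SUMO conjugation, the SMC5/6 complex and NFATC2IP partners. Names could be paired with 12 of the former and 13 of the latter, and the others, including the NFAT factors and the other RCAN genes, were not analysed here. A gene was called DE if its Benjamini-Hochberg-adjusted p was no larger than 0.05 and its log2 fold change was 1 or more in size. With limma, 0 of these 25 genes were DE in any comparison, as were 0% of all genes tested in each. At an unadjusted p under 0.05 there were 2, 1 and 1 genes of the calcineurin and NFAT list in these comparisons and 0, 1 and 0 of the SUMO list, against 3.78%, 3.62% and 2.98% of all genes tested. By edgeR on the recovered reads 0 list genes were called, beside 0%, 0.012% and 0.0131% of all genes. DESeq2 on the same reads called none of them in VIM vs. FR (6.91% of all genes). It called 2 when VMAT was compared with FR (4.3% of all genes), and the same 2 when VIM was compared with VMAT (3.93%). It gave no adjusted p for 32.9%, 38.5% and 45.5% of genes. In the same order of comparisons, the median log2 fold change of the calcineurin and NFAT genes was -0.39, -0.39 and 0.22, beside -0.12, 0.01 and -0.08 over all genes tested. For the SUMO list it was 0.20, 0.15 and 0.19.

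The phosphatase subunits PPP3CA and PPP3R1 had more than 30 reads in all 12 samples, which RCAN3 had in 5. PPP3CA, a catalytic subunit of calcineurin, was at 122 to 932 in VIM, 99.0 to 2829 in VMAT and 88.5 to 1116 in FR, and the groups overlapped (log2 fold change in VIM vs. FR -0.57, standard error 1.12, limma adjusted p = 0.959). PPP3R1, the calcium-binding regulatory subunit, was at 126, 1377, 78.3 and 174 in VIM and at 602 to 1335 in FR. Thus 3 of 4 VIM samples were below every FR sample and VIM replicate 2 was above them all (log2 fold change -2.21, standard error 0.94, limma adjusted p = 0.902). VIM replicate 2 was also the highest VIM sample for PPP3CA. In VMAT vs. FR the log2 fold change of PPP3R1 was 0.02 (standard error 0.90). CALM2, 1 of the calmodulin genes, was at 8381 to 49590 in all samples, with overlapping groups in each comparison.

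Of the NFAT kinases, GSK3B was at 3562 to 9391 in VIM, 1159 to 8321 in VMAT and 1678 to 7135 in FR, with a log2 fold change of 0.92 in VIM vs. FR (standard error 0.44, limma adjusted p = 0.902). DYRK1A held 0, 7 and 1 reads in the VMAT samples. It was at 387, 65.2, 1.21 and 96.8 in VIM and at 3.23, 313, 416, 24.7 and 229 in FR, above VMAT (0 to 1.18) in every sample, though VIM replicate 3 only just. As RPM, its lowest VIM sample (0.395) was below its highest VMAT sample (0.575). Its log2 fold change was -5.65 in VMAT vs. FR (standard error 2.48, adjusted p = 0.95 in limma and 0.00187 in DESeq2) and 4.92 in VIM vs. VMAT (standard error 2.88, adjusted p = 0.967 in limma and 0.0136 in DESeq2). Over all alternatives the adjusted p ranged from 0.00187 to 0.999 and from 0.0136 to 1.0, and only DESeq2 called the gene. In VIM replicate 3 and FR replicate 1 the gene had only 1 and 3 reads.

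CSNK1D, a casein kinase, was the other gene called by DESeq2, and it is named here after its values were seen. It was at 1.18 to 3.11 in VMAT, and above 30 reads in 2 of 4 VIM and 2 of 5 FR samples, so that both groups overlapped with VMAT (DESeq2 adjusted p = 0.0404 against FR, range over alternatives 0.0404 to 0.988, and 0.00378 against VIM, range 0.00378 to 1.0). The related CSNK1E was at 0 to 45.1 in VMAT and 3.43 to 924 in FR (log2 fold change -4.56, standard error 2.30, limma adjusted p = 0.95).

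The calcium channel gene ITPR1 was at 449 to 1196 in all VIM samples. In VMAT it was at 6.22, 358 and 2.36, and in FR at 966, 9.15, 202, 277 and 300. In normalized counts all VIM samples were above all VMAT samples (log2 fold change 5.10, standard error 1.84, limma adjusted p = 0.967, range over alternatives 0.275 to 1.0). As RPM the groups overlapped, with 147 to 346 in VIM and 0.817 to 235 in VMAT. ITPR1 was high in the same VMAT sample as NFATC2IP (replicate 2), and low in the others. That sample had the most reads, with 6369 genes above 30 reads against 2145 and 2975 in VMAT replicates 1 and 3. The part of depth in this was not tested for ITPR1.

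**Figure D4:**
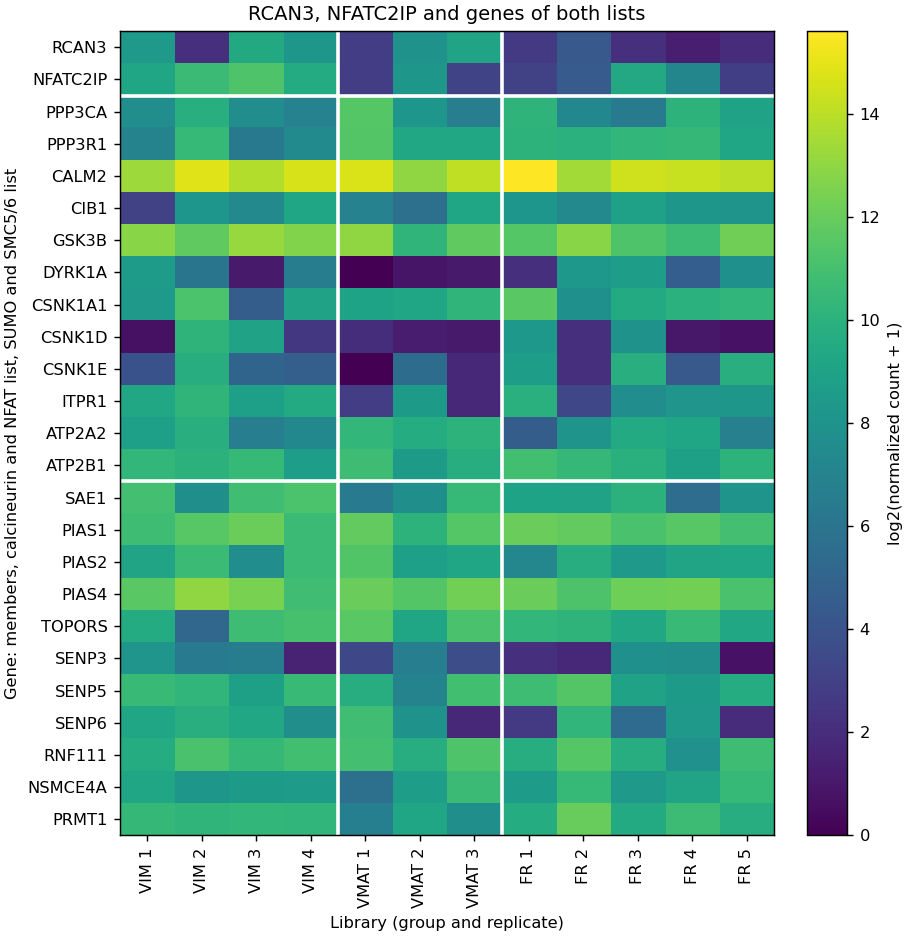
Log2(normalized count + 1) of RCAN3, NFATC2IP and genes of both lists (rows) in the 12 samples (columns), with white lines between groups and lists. CALM2, GSK3B, PIAS1 and PIAS4 are found at a high level in all samples, whereas RCAN3, NFATC2IP, DYRK1A, CSNK1D and CSNK1E change between few and many reads.

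Of the 13 genes with a name in the SUMO list, 7 were above 30 reads in all 12 samples, as were 5 of 12 in the calcineurin and NFAT list and 6.44% of all genes detected. The share among all genes with a name was not taken. SAE1, a subunit of the SUMO-activating enzyme, had a log2 fold change of 1.84 in VIM vs. FR (standard error 1.003, limma adjusted p = 0.902). The SUMO protease SENP6 had one of 3.26 (standard error 1.63, limma adjusted p = 0.902), and in FR it was at 2.86 to 1240. The ligase PIAS2 was at 201 to 1617 in VIM, 452 to 2658 in VMAT and 148 to 857 in FR (log2 fold change in VMAT vs. FR 1.08, standard error 1.099, limma adjusted p = 0.962).

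PRMT1, an arginine methyltransferase that is known to methylate NFATC2IP, was even in VIM at 1362, 1182, 1268 and 1241. In VMAT it was at 106, 599 and 216, and in FR at 812, 4071, 735, 1675 and 831. In normalized counts all VMAT samples were below all samples of the other groups. As RPM they overlapped with both, at 20.8 to 393 in VMAT, 341 to 564 in VIM and 266 to 1299 in FR. The log2 fold change was -2.41 in VMAT vs. FR (standard error 1.04, limma adjusted p = 0.95) and 2.39 in VIM vs. VMAT (standard error 1.24, limma adjusted p = 0.967). Over both lists, the normalized counts of the groups did not overlap for 3 of 25 genes in VIM vs. VMAT. They were DYRK1A, ITPR1 and PRMT1, higher in VIM as 1.72% of all genes were. In VMAT vs. FR they were DYRK1A and PRMT1, lower in VMAT (1.23% of all genes), and ATP2A2, a calcium pump of the endoplasmic reticulum, higher in VMAT at 809 to 1282 against 23.7 to 750 (1.96% of all genes). In VIM vs. FR there was no such gene in either list. As RPM, however, DYRK1A, ITPR1 and PRMT1 overlapped in VIM vs. VMAT. PRMT1 and ATP2A2 overlapped as RPM in VMAT vs. FR (ATP2A2 at 252 to 531 in VMAT and 7.76 to 309 in FR). The shares over all genes were taken from normalized counts only.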

How the data were processed

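The authors trimmed the reads of 3′ libraries with unique molecular identifiers, mapped them to EquCab3.0 with STAR, processed the identifiers with UMI-tools, and made count tables with RSEM. At the RNA quality control they dropped pools of both vitrified groups but none of FR. They later left out 1 more VMAT sample for its poor quality. What the authors deposited is a signal: counts over a size factor of each sample. Over all samples, 100% of values were whole multiples (tolerance 0.01) of what 1 read was worth, which gave whole reads. No column was left out.

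Each comparison used its own samples, and a gene was tested if it was above 0 in a number of samples no lower than the size of the smaller group. Log2 values (pseudocount 1) were fitted with limma 3.58.1 under R 4.3.3 using a mean-variance trend, with Benjamini-Hochberg adjustment over all genes. Alternatives included edgeR 4.0.16 (quasi-likelihood test) and DESeq2 1.42.0 on the recovered reads, pseudocounts of 0.5 and 10, other filters on low values, equal totals, all 12 samples in one fit, a replicate block and leaving out each sample in turn. All tools were run on simulated counts with the same spread for every gene and no split between few and many reads. That run does not show how the tools perform on genes with such a split. A sample was called high above 30 reads.

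Names of 2569 identifiers came from the study's supplementary tables, of whose contents only names were used. Whether counting used strand is not given in the sources used here. Sequences and gene positions were not analysed here. No sample was a repeat of another of its group (lowest chi-square between samples of one group 277 for each degree of freedom). Samples of different groups were not compared in this way.

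The members and gene lists were chosen with earlier results of these data known. Results of some items are not reported here. Otherwise the text names both members, the direct partners, in each list and comparison the 2 genes with the smallest p, any gene that passed, and the 5 genes most like each member.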

Additional observations from a re-analysis of the deposited data

Results flagged for a closer look

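Each group of 4 or 5 samples was searched for a sample whose gap to its nearest neighbour took up most of the range of the group (above Dixon's 95% critical value). For RCAN3, NFATC2IP and 11 list genes, 7 of 26 groups held such a sample. Chance would give 1.3 for normally distributed values, but many of these genes change between few and many reads, so the count is a description and no test of either gene. The share of such groups over all genes was not taken, so nothing is read from the count about these genes or their lists. RCAN3 was at 19.4 in FR replicate 2, with the other FR samples at 1.51 to 5.39. NFATC2IP was at 681 in FR replicate 3, with the others at 6.44 to 141. VIM replicate 2 stood apart in 3 genes of the calcineurin and NFAT list, with PPP3CA at 932 (others 122 to 199.5), PPP3R1 at 1377 (others 78.3 to 174) and CSNK1E at 836 (others 14.1 to 31.3). In FR, SENP6 was at 1240 in replicate 2 (others 2.86 to 335) and PRMT1 was at 4071 in replicate 2 (others 735 to 1675).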

How the results depend on the processing

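RCAN3 and NFATC2IP had a positive log2 fold change in VIM vs. FR under all alternatives (3.54 to 5.69 and 2.81 to 4.83) and with each sample left out (3.78 to 6.23 and 4.16 to 5.79). RCAN3 ranged from 3.10 to 5.47 in VMAT vs. FR, and from 2.93 to 6.04 with a sample left out. NFATC2IP in VIM vs. VMAT was lowest with edgeR (3.11), and lay between 4.48 and 7.17 with a sample left out. Leaving out samples moved RCAN3 in VIM vs. VMAT between -1.47 and 2.08 and NFATC2IP in VMAT vs. FR between -2.38 and 0.35, with the sign turned without VIM replicate 1 (-0.03), VIM replicate 3 (-0.38) or VMAT replicate 1 for the former and without FR replicate 3, VMAT replicate 1 (0.31) or VMAT replicate 3 (0.13) for the latter.

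The count of DE genes was 0 in limma with each sample left out. Without a filter on low values limma called 3 genes in VIM vs. FR (TM9SF4, TOMM70 and ENSECAG00000023121). EdgeR called 1 for VMAT vs. FR (ENSECAG00000009451) and 1 for VIM vs. VMAT (REEP3), and DESeq2 called 508 for VIM vs. FR, 357 for VMAT vs. FR and 300 for VIM vs. VMAT. Of the calcineurin and NFAT list DESeq2 called 2 against FR and 2 against VIM in VMAT (DYRK1A and CSNK1D). The cause was not tested. With the replicate block, limma called 0 genes in each comparison, so that no call changed, and the log2 fold change of RCAN3 was 4.44 in VIM vs. FR. Samples of the same number did not deviate together (r = -0.03 to 0.01 over 10 pairs), so the numbers were not taken as pairs. FR and VMAT oocytes were matured together and assigned to their group afterwards, whereas VIM oocytes were matured after warming. Which pools shared a maturation run is not given in the labels, and the part of shared runs was not tested. With 3 to 5 samples per group and values that change between few and many reads, the standard errors of the fold changes of both genes were 1.43 to 2.49.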
